A study of Rattus norvegicus with 9 samples.

Results

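Cyclic AMP, the second messenger made by adenylyl cyclases, acts in cells through a small set of effector proteins. This account covers 10 genes of that set, taken by symbol from the deposited count table: the exchange factors Rapgef3 (Epac1) and Rapgef4 (Epac2), the protein kinase A (PKA) catalytic subunits Prkaca and Prkacb, the PKA regulatory subunits Prkar1a, Prkar1b, Prkar2a and Prkar2b, the transcription factor gene Creb1 and the anchoring protein gene Akap5. All 10 were found among 30446 genes, and all 10 passed the low-count filter along with 16627 genes in total. RNA had been sequenced from dorsal root ganglia (DRG), which hold the cell bodies of sensory neurons and their glia, of male Sprague-Dawley rats. The ganglia were lower thoracic and lumbar and came from the left and the right side. The 9 libraries form 3 groups of 3: rats with a spinal cord injury (SCI), rats with a sham operation, and naive rats. The labels give 30 days after injury for every library, the naive ones included. They state neither the level or kind of the injury nor whether 1 rat or several gave a library, and the p-values rest on the spread among these libraries, which may be partly technical.

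PKA at rest is a complex in which regulatory subunits hold catalytic subunits inactive, and cAMP binding frees the catalytic subunits. Free catalytic subunits phosphorylate ion channels and enzymes, and in the nucleus they phosphorylate CREB, which then recruits coactivators to genes with a cAMP response element (CRE). Epac proteins bind cAMP directly and switch on the small G proteins of the Rap family. In sensory neurons both arms are known for sensitization of nociceptors and for a part in axon growth.

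Library totals ran from 16724878 to 32060538 counts. In a principal component analysis of log2 CPM (counts scaled to the library's TMM-adjusted total) the naive libraries stood apart on the first axis (59.3% of the variance), with scores from -43.5 to -41.6, against 14.2 to 25.7 for the SCI and sham libraries. The labels name no batch, so in any difference from naive below, an operation or injury cannot be told apart from a batch made up of naive libraries alone. The sham libraries differed among themselves more than those of the other groups (chi-square per degree of freedom 12.5 to 39.1, against 3.01 to 7.55 within SCI and 3.62 to 4.84 within naive). Sensory neuron markers such as Prph, Tubb3 and Avil were abundant in every group (means of at least 939 CPM), and the 6 spinal cord glia markers ran from Olig2, at 0 in 8 of 9 libraries, to Mog, at means of 4.55 CPM in SCI libraries, 4.08 in sham libraries and 5.23 in naive libraries. In whole ganglia, fewer cells of a type and less RNA per cell cannot be told apart.

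Between SCI and sham, none of the 10 genes passed an adjusted p of 0.05 in edgeR's quasi-likelihood test, which called 0.0% of all genes (0 of 16627). At an unadjusted p under 0.05 edgeR had 526 genes in all and 1 of the 10, Rapgef3. Over the whole table DESeq2 called 9 and limma-voom 0, and neither called any of the 10. The median log2 change of the 10 was -0.016, beside -0.00078 over all genes tested, and 0 of 10 had libraries that did not overlap, beside 6.41% of all genes (3.3% above and 3.11% below). Between SCI and naive, Prkacb and Prkar1a were lower in SCI, which is 2 of 10 where edgeR called 48.5% of all genes (23.9% higher and 24.6% lower). In 4 of 10 the SCI and naive libraries did not overlap, 2 above and 2 below, beside 64.1% of all genes (32.2% above and 31.9% below). Between sham and naive, Prkaca was higher and Rapgef3 and Prkacb were lower in sham, which is 3 of 10 beside 50.6% of all genes (24.7% higher and 25.9% lower). In 6 of 10 the sham and naive libraries did not overlap, 1 above and 5 below, beside 56.7% of all genes (27.5% above and 29.2% below). The share of the 10 called lay below that of all genes in both comparisons with naive. The median size of the log2 change, without its sign, was 0.13 for the 10 genes and 0.30 for all genes between SCI and naive, and 0.19 and 0.32 between sham and naive.

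**Figure D1:**
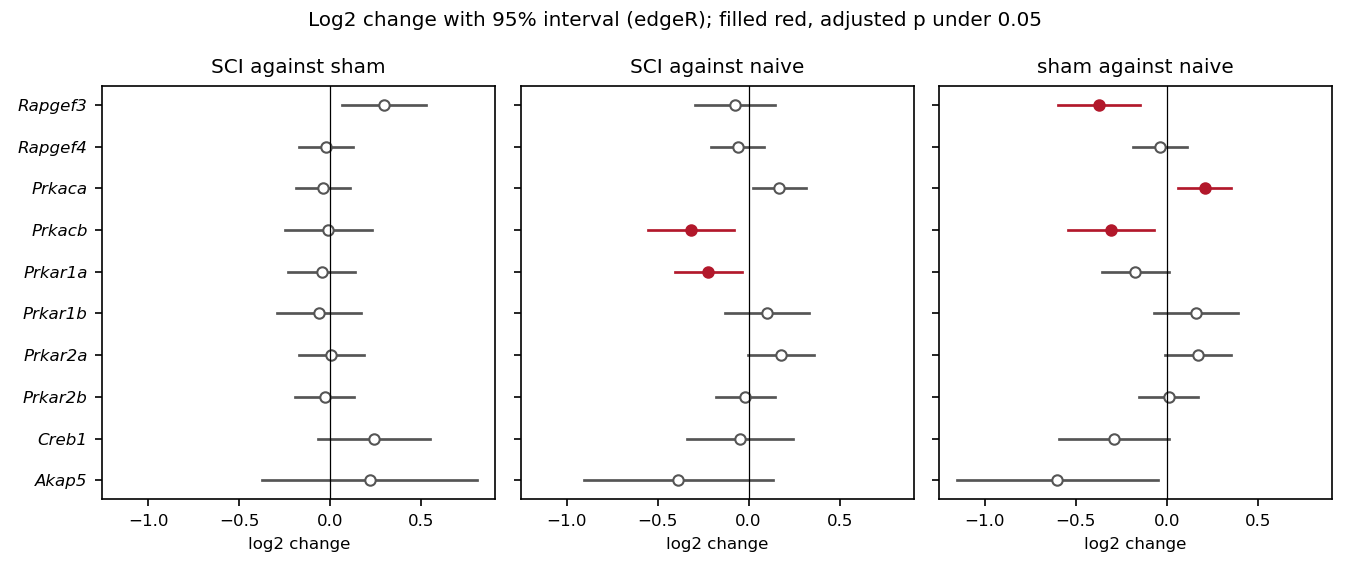
Log2 change of each of the 10 cAMP effector genes with its 95% interval from edgeR, for SCI against sham (left), SCI against naive (middle) and sham against naive (right). Filled red points passed an adjusted p of 0.05: none against sham, Prkacb and Prkar1a for SCI against naive, and Rapgef3, Prkaca and Prkacb for sham against naive.

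Rapgef3 encodes Epac1, a cAMP-activated exchange factor for Rap proteins that is widely expressed and well known from endothelium. It stood at 29.0, 27.1 and 23.7 CPM in SCI libraries 1 to 3, at 20.1, 19.6 and 25.5 in sham libraries and at 27.6, 27.2 and 29.6 in naive libraries. Sham 1 and sham 2 were the lowest of all 9 libraries, while sham 3 lay inside the SCI range. The mean was 26.6 ± 2.68 CPM in SCI and 21.8 ± 3.30 in sham (SD, n = 3 each), and edgeR's fitted fold was 1.23 (log2 change 0.30, SE 0.11, 95% interval 0.067 to 0.52). It did not pass in edgeR (unadjusted p = 0.0151, adjusted p = 0.9999). Without sham 3 the log2 change was 0.42 and its adjusted p, still from edgeR, was 0.0762. The SCI libraries overlapped those of naive (mean 28.1 ± 1.302 CPM; log2 change -0.076, 95% interval -0.30 to 0.14).

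The sham libraries all lay below the naive libraries in Rapgef3 (log2 change -0.37, SE 0.10, edgeR adjusted p = 0.00949). This call held under all 17 alternatives, with log2 changes from -0.49 to -0.30. Summed over 10 matched endothelial markers, the level was 277, 251 and 256 CPM in SCI libraries, 220, 260 and 297 in sham libraries and 284, 263 and 275 in naive libraries. In sham the endothelial total and Rapgef3 were both highest in sham 3. So were all other cell type totals described below, except those of sensory neurons and skeletal muscle, which were lowest there. The endothelial total of sham 3 was the highest of all 9 libraries, while its Rapgef3 lay below every naive library. Against naive, Kdr, Flt1 and Vwf had lower means in SCI and sham, and Cdh5, Emcn, Erg, Esam and Tie1 higher means. The endothelial markers ran from Erg at 6.05 CPM to Cdh5 at 58.4 CPM in SCI, and Cldn5 was at 0 in all 9 libraries. Skeletal muscle markers, from tissue next to the ganglia, were highest in sham, at 80.4 ± 17.1 CPM in SCI libraries, 143 ± 11.1 in sham libraries and 85.7 ± 20.9 in naive libraries (sum of 10 matched of 12 listed). The part of these tissues in the Rapgef3 values was not tested.

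Rapgef4 encodes Epac2, the exchange factor that in rodents prevails in brain and endocrine cells. It stood at 92.3, 81.1 and 79.8 CPM in SCI libraries, 88.9, 87.3 and 81.0 in sham libraries and 87.1, 88.2 and 89.1 in naive libraries. All groups overlapped. The log2 change was -0.022 between SCI and sham (95% interval -0.17 to 0.13), -0.061 between SCI and naive (-0.21 to 0.086) and -0.039 between sham and naive (-0.19 to 0.11), and none passed in edgeR.

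The Rapgef4 count was 3.18, 2.99 and 3.36 times the Rapgef3 count in SCI libraries 1 to 3, 4.42, 4.46 and 3.17 times in sham libraries and 3.16, 3.24 and 3.01 times in naive libraries. Such a ratio needs no scaling between libraries, although its size depends on gene length, which was not used here. The log2 ratio was lower in SCI than in sham by a difference of -0.32 (two-sided exact permutation p = 0.3, adjusted p = 0.45) and higher in sham than in naive by 0.34 (exact permutation p = 0.2, adjusted p = 0.34). Between SCI and naive the difference was 0.017 (exact permutation p = 0.9, adjusted p = 0.98). With 3 libraries against 3 the smallest possible p is 0.1, so no ratio could pass 0.05. These p-values were adjusted over 12 comparisons of 4 ratios.

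**Figure D2:**
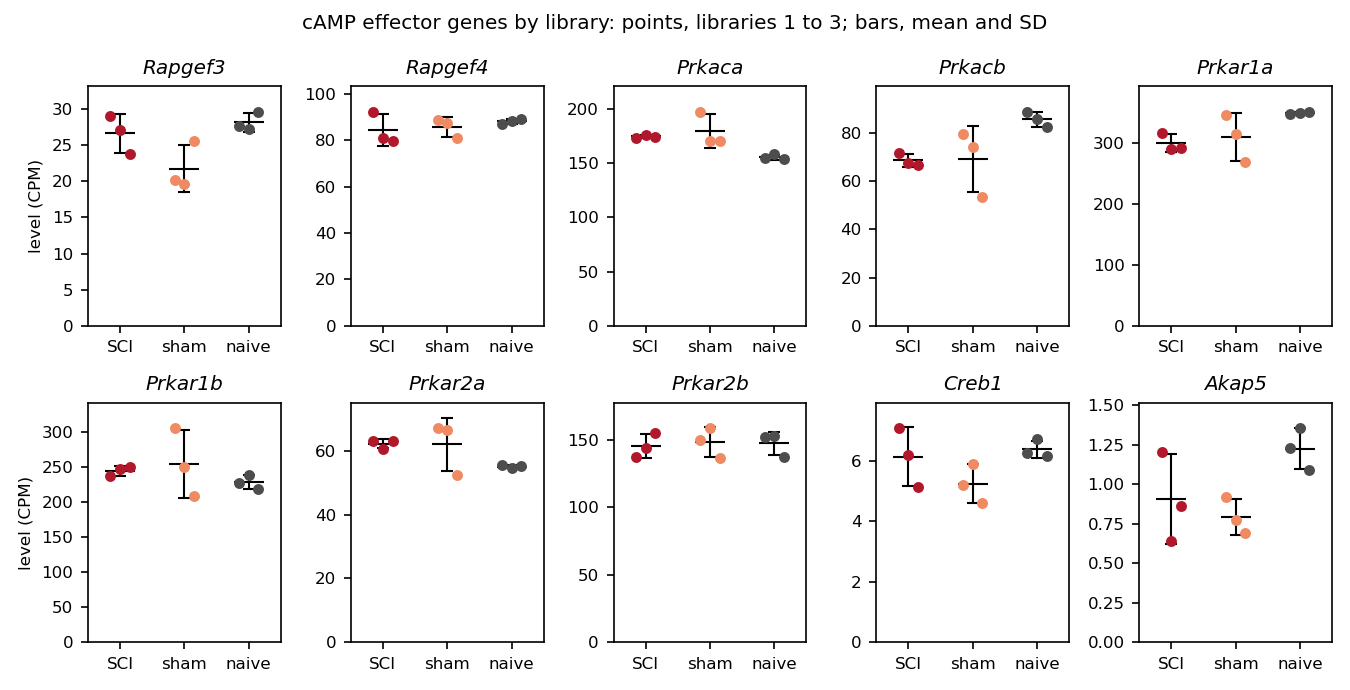
Level of each of the 10 genes in CPM (vertical axes from 0) in SCI, sham and naive libraries, with points for libraries 1 to 3 and black bars for the mean and SD. Rapgef3 was lowest in sham 1 and sham 2, and Prkacb and Prkar1a were highest in naive. By SD, the sham libraries spread more than the SCI and naive libraries for every gene except Rapgef4, Creb1 and Akap5, where SCI spread most.

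The PKA catalytic subunits Prkaca and Prkacb are the kinase itself, in an alpha form found in most cells and a beta form abundant in neurons. Against naive, Prkacb was called lower in SCI and in sham, and Prkaca was called higher in sham. Prkaca stood at 174, 176 and 175 CPM in SCI libraries, 197, 170.5 and 170.4 in sham libraries and 155, 158 and 154 in naive libraries. Every SCI and sham library lay above every naive library. Between SCI and naive the difference (log2 change 0.17, SE 0.07) missed the threshold (edgeR adjusted p = 0.0558).

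Between sham and naive Prkaca rose (log2 change 0.21, SE 0.07, edgeR adjusted p = 0.0212). Sham 1 was the highest library. Without it the log2 change was 0.12 (edgeR adjusted p = 0.0658), and the call was lost as well without naive 1 (adjusted p = 0.0651), without naive 3 (adjusted p = 0.0849) and with only the sham and naive libraries in the edgeR fit (adjusted p = 0.0516). Conversely, the SCI difference passed without sham 1 or sham 3 (edgeR adjusted p = 0.0119 and 0.0219), with only the SCI and naive libraries in the fit (0.00290) and with upper-quartile scaling (0.0369). Against sham, the SCI log2 change was -0.039 (95% interval -0.19 to 0.11).

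Prkacb stood at 71.7, 67.4 and 66.8 CPM in SCI libraries, 79.5, 74.2 and 53.6 in sham libraries and 88.7, 85.5 and 82.5 in naive libraries. All SCI and all sham libraries lay below the naive ones, and sham 3 was the lowest of all. The level fell to 68.6 ± 2.64 CPM in SCI and to 69.1 ± 13.7 in sham, against 85.6 ± 3.12 in naive (SD, n = 3 each). The log2 change was -0.32 (SE 0.11, edgeR adjusted p = 0.0289) between SCI and naive and -0.31 (SE 0.11, edgeR adjusted p = 0.0328) between sham and naive.

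The SCI call of Prkacb was lost without naive 1, naive 2, SCI 2 or SCI 3 (edgeR adjusted p = 0.0941, 0.0708, 0.0894 and 0.0922), at log2 changes from -0.32 to -0.29. The sham call was lost without sham 3, where the log2 change was -0.15 (edgeR adjusted p = 0.0613). It was lost too without naive 1, naive 2, naive 3 or SCI 2 (edgeR adjusted p = 0.107, 0.0803, 0.0511 and 0.0519) and with only the sham and naive libraries in the fit (0.0734). SCI against sham gave a log2 change of -0.0099, with a 95% interval of -0.25 to 0.23.

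Within each library the Prkacb count was 0.413, 0.383 and 0.383 of the Prkaca count in SCI libraries, 0.403, 0.435 and 0.314 in sham libraries and 0.573, 0.540 and 0.536 in naive libraries. No SCI or sham library reached the lowest naive value. The difference in log2 ratio was -0.49 between SCI and naive and -0.53 between sham and naive, each with an exact permutation p = 0.1, the smallest possible (adjusted p = 0.24). Leaving out any 1 library kept the SCI difference between -0.52 and -0.46 and the sham difference between -0.63 and -0.39. SCI and sham differed in this ratio by 0.046 (exact permutation p = 0.9), which turned to -0.092 without sham 3.

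Promoter letters were searched for the CRE because CREB, the last gene of this chain, binds it. The full element TGACGTCA, which reads the same on the opposite strand, was in none of the 11 promoter windows (250 bases before to 50 after a RefSeq start, build GRCr8) that matched 9 of the 10 genes, and in 1.83% of 33469 rat promoter windows of that length. The shorter core TGACG, or CGTCA on the opposite strand, which lies inside the full element, was in windows of Prkaca, Prkacb and Creb1, that is 1 window each and 3 of 11 windows in all, beside 21.2% of all windows. These are shown, with the core in capitals, since the sham calls of the catalytic pair against naive had opposite signs.
Prkaca, 193 bases before its start (chr19:41083366-41083394, minus strand): gtctgcaactcgCGTCActcatccaggag
Prkaca, 79 bases before its start (chr19:41083252-41083280, minus strand): ggactgcgggggCGTCAcggacagaggac
Prkacb, 25 bases after its start (chr2:238386274-238386302, minus strand): tcccctcccctcCGTCActcctgcttacg
Creb1, 80 bases before its start (chr9:73397417-73397445, plus strand): agtgttggtgagTGACGcggcggaggtgt
Creb1, 59 bases before its start (chr9:73397438-73397466, plus strand): ggaggtgtagttTGACGcggtgtgttacg
Creb1, 8 bases after its start (chr9:73397505-73397533, plus strand): gaacgaaagcagTGACGgaggagcttgta
All are printed along the gene's strand. A core was thus found for the gene that was higher against naive and for the one that was lower. The letters are a description of these windows, and genes can have other starts.

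**Figure D3:**
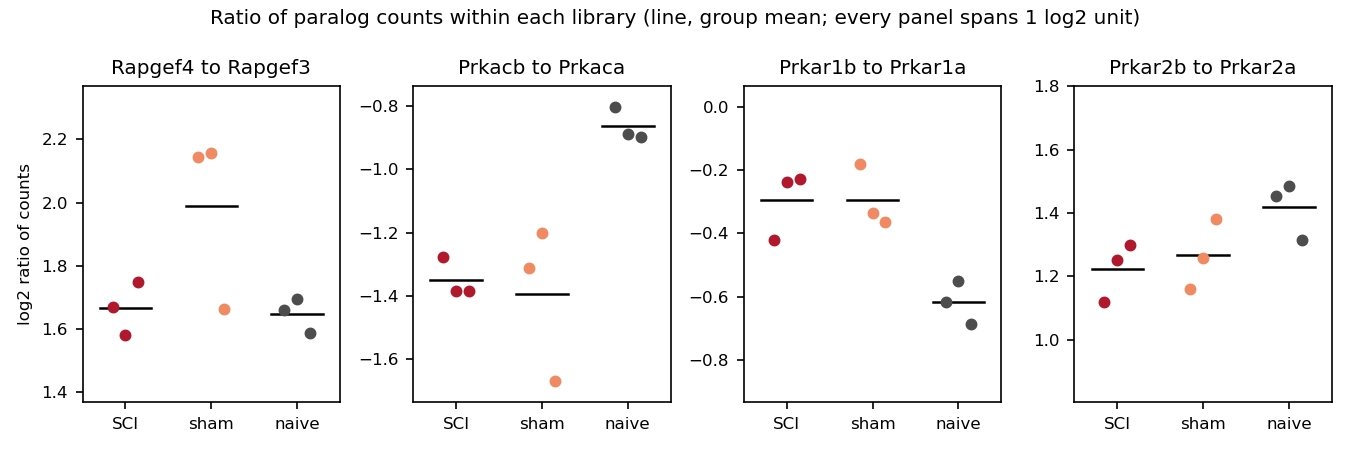
Log2 ratio of the counts of 4 paralog pairs within each library, with points for libraries 1 to 3 of SCI, sham and naive, lines for group means and vertical axes of equal span. The Prkacb to Prkaca ratio of the SCI and sham libraries lay below all naive libraries, and the Prkar1b to Prkar1a ratio above them.

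The type I regulatory subunits Prkar1a and Prkar1b hold PKA mostly in the cytosol. The alpha form is found in nearly all cells, and the beta form is enriched in neurons. Prkar1a stood at 317, 291 and 293 CPM in SCI libraries, 347, 315 and 269 in sham libraries and 349, 349.5 and 352 in naive libraries. The naive libraries lay within 4 CPM of each other and above all others, with sham 1 just under them. Between SCI and naive Prkar1a fell (log2 change -0.22, SE 0.08, edgeR adjusted p = 0.0458).

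The Prkar1a call lay close to the threshold. It was lost with upper-quartile scaling (edgeR adjusted p = 0.0659) and without naive 1, naive 2, naive 3, sham 2, SCI 2 or SCI 3 (edgeR adjusted p from 0.0680 to 0.159), while the log2 change stayed between -0.26 and -0.20. Between sham and naive it did not pass (log2 change -0.17, edgeR adjusted p = 0.105), and sham 1 and sham 3 pulled it in opposite directions. It passed without sham 1 (log2 change -0.27, edgeR adjusted p = 0.00655) and shrank without sham 3 (log2 change -0.073, edgeR adjusted p = 0.366). Between SCI and sham the log2 change was -0.047 (95% interval -0.23 to 0.14).

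Prkar1b stood at 237, 247 and 250.2 CPM in SCI libraries, 306, 249.8 and 209 in sham libraries and 227, 239 and 219 in naive libraries. The 3 groups overlapped, and the sham libraries held the highest and the lowest value of all. No comparison passed in edgeR, with log2 changes of -0.059 between SCI and sham (95% interval -0.29 to 0.17), 0.099 between SCI and naive and 0.16 between sham and naive. Without sham 3 the last was 0.29 and passed (edgeR adjusted p = 0.00582), and without sham 1 it was -0.0016.

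The order of the sham libraries in Prkar1b was also that of the summed sensory neuron markers, which held 11449, 9396 and 8536 CPM in sham 1 to 3, beside 8845, 9767 and 9953 in SCI and 8326, 8727 and 8467 in naive. Schwann cell markers ran the other way in sham, at 17034, 18626 and 21187 CPM, beside 22370, 18421 and 18398 in SCI and 29608, 28762 and 30548 in naive. Among the sham libraries, Prkacb, Prkar1a, Prkar2a, Rapgef4 and the sparse Akap5 were likewise highest in sham 1 and lowest in sham 3. Prkaca was highest in sham 1, with sham 2 and sham 3 nearly equal (170.5 and 170.4 CPM). In SCI, Prkar1b again had the order of the neuron total. Prkacb (71.7 CPM), Prkar1a (317 CPM), Prkar2a (63.1 CPM), Rapgef4 (92.3 CPM) and Akap5 (1.21 CPM) did not. They were highest in SCI 1, where the neuron total was lowest. The part of the mixture of neurons and glia in these values was not tested.

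The Prkar1b count was 0.748, 0.848 and 0.854 of the Prkar1a count in SCI libraries, 0.882, 0.792 and 0.777 in sham libraries and 0.652, 0.683 and 0.622 in naive libraries. Every SCI and sham library lay above every naive one. The log2 ratio was 0.32 higher than naive in SCI as in sham (exact permutation p = 0.1 each, the smallest possible, adjusted p = 0.24), and SCI and sham differed by -0.0010 (exact permutation p = 1.0).

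The type II regulatory subunits Prkar2a and Prkar2b bind A-kinase anchoring proteins tightly, and the beta form is abundant in brain and fat. Prkar2a stood at 63.1, 60.5 and 62.9 CPM in SCI libraries, 67.0, 66.4 and 52.4 in sham libraries and 55.4, 54.5 and 55.2 in naive libraries. The SCI libraries all lay above the naive ones, while sham 3 lay below every naive library. Neither difference from naive passed (log2 change 0.18 in SCI, edgeR adjusted p = 0.0939, and 0.17 in sham, edgeR adjusted p = 0.104). Without sham 3 each passed, at a log2 change of 0.18 in SCI (edgeR adjusted p = 0.00678) and 0.29 in sham (edgeR adjusted p = 0.000658). Without sham 1 the sham log2 change was 0.099 (edgeR adjusted p = 0.343). The SCI difference also passed with only the SCI and naive libraries in the fit (edgeR adjusted p = 0.00526).

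Prkar2b stood at 137, 144 and 155 CPM in SCI libraries, 149.7, 159 and 137 in sham libraries and 152, 152 and 137 in naive libraries. All groups overlapped almost fully. Log2 changes were -0.029 between SCI and sham (95% interval -0.19 to 0.13), -0.019 between SCI and naive (-0.18 to 0.14) and 0.0098 between sham and naive (-0.15 to 0.17). Among the 10 genes Prkar2b had the log2 change closest to 0 in either comparison with naive. Adipocyte markers, which would accompany Prkar2b from fat, summed to 64.3 ± 1.87 CPM in SCI libraries, 64.3 ± 13.9 in sham libraries and 50.8 ± 11.5 in naive libraries over 6 genes, with Lep at 0 in 6 of 9 libraries. By gene, Adipoq and Lipe had higher means in SCI and sham than in naive, while Plin1, Cidec and Fabp4 had lower means. The median log2 change of the tested adipocyte markers was -0.59 between SCI and naive and -0.57 between sham and naive.

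The Prkar2b count was 2.17, 2.38 and 2.46 times that of Prkar2a in SCI libraries, 2.23, 2.39 and 2.61 times in sham libraries and 2.74, 2.80 and 2.49 times in naive libraries. The SCI libraries lay below the naive ones, with a log2 difference of -0.20 (exact permutation p = 0.1, the smallest possible, adjusted p = 0.24). Sham 3 lay above the lowest naive library, and the sham difference of -0.15 had an exact permutation p = 0.2. SCI and sham differed by -0.043 (exact permutation p = 0.7).

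Akap5 encodes an anchoring protein that places PKA, protein kinase C and calcineurin beside membrane channels, TRPV1 of nociceptors among them. It was sparse, with 39, 13 and 19 counts in SCI libraries, 25, 13 and 14 in sham libraries and 34, 43 and 34 in naive libraries. These correspond to 1.21, 0.643 and 0.864 CPM in SCI libraries, 0.918, 0.774 and 0.694 in sham libraries and 1.23, 1.35 and 1.09 in naive libraries. The sham libraries all lay below naive, and SCI 1 lay among the naive values. The log2 change was 0.22 between SCI and sham (95% interval -0.38 to 0.81), -0.39 between SCI and naive (-0.91 to 0.13) and -0.60 between sham and naive (edgeR adjusted p = 0.0660, or 0.0480 without SCI 1). The values of the SCI comparisons depended on single libraries. Without SCI 1 the log2 change between SCI and sham turned to -0.090 and that between SCI and naive was -0.69, while without SCI 2 the second was -0.21. Between sham and naive the log2 change ran from -0.75 to -0.50 with 1 library left out. With so few counts, the interval between SCI and sham was wide and held changes in both directions.

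Creb1 encodes CREB, the transcription factor that PKA phosphorylates. Its counts ran from 93 to 229, or 7.08, 6.18 and 5.14 CPM in SCI libraries, 5.22, 5.89 and 4.61 in sham libraries and 6.26, 6.71 and 6.17 in naive libraries. The sham libraries lay below naive, and the SCI libraries spanned both groups. None of the comparisons passed, with log2 changes of 0.24 between SCI and sham (95% interval -0.065 to 0.55, edgeR adjusted p = 0.9999), -0.047 between SCI and naive (-0.34 to 0.24) and -0.29 between sham and naive (-0.59 to 0.012, edgeR adjusted p = 0.102). Without SCI 1 the log2 change between SCI and sham was 0.11, and with any 1 library left out it ran from 0.11 to 0.35.

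In their order over the groups, Rapgef3, Creb1 and Akap5 had the lowest mean in sham and the highest in naive. For Rapgef3 sham and naive differed, and SCI did not pass against either neighbour. For Prkacb and Prkar1a naive was highest, and for Prkaca naive was lowest. Their SCI and sham means did not differ beyond the spread of the libraries.

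Counts of 6 further lists of the pathway, chosen with earlier results of these data known, are given beside the 10 genes. EdgeR called none of their tested genes between SCI and sham. The gene with the smallest p in each list was Pkig among G proteins and PKA inhibitors (log2 change -0.086, SE 0.07), Pde7a among phosphodiesterases (0.29, SE 0.12), Akap8 among other anchoring proteins (0.17, SE 0.09), Rapgef6 among Rap regulators (0.15, SE 0.08), Atf1 in the Creb family (0.26, SE 0.11) and Fos among Creb targets (0.76, SE 0.15). None of these passed in edgeR. Fos, a classic CREB target, held 11.2, 11.8 and 12.6 CPM in SCI, 5.55, 6.96 and 8.63 in sham and 6.91, 5.86 and 7.84 in naive, and its SCI libraries lay above all others (edgeR adjusted p = 0.495 against sham and 0.000790 against naive). Fosb, its relative, chosen after its values were seen as the target farthest from 0 in the plot of pathway lists, had log2 changes of 1.46 in SCI against sham (SE 0.34, edgeR adjusted p = 0.957) and 1.68 in SCI against naive (SE 0.33, edgeR adjusted p = 0.000983).

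The list of G proteins and PKA inhibitors had 8 of 8 genes called in SCI against naive, with 5 higher and 3 lower, and again 5 higher and 3 lower between sham and naive (medians 0.36 and 0.39, beside 0.011 and 0.00048 over all genes). Of all genes tested, 48.5% were called between SCI and naive (23.9% higher, 24.6% lower) and 50.6% between sham and naive (24.7% higher, 25.9% lower), and the counts of the lists below are read against these shares. Pkig and Pkia encode inhibitor proteins that block free PKA catalytic subunits, and they moved apart. Pkig rose to 79.9 ± 5.46 CPM in SCI and 84.8 ± 4.84 in sham, against 44.3 ± 2.22 in naive (SD, n = 3 each; log2 change 0.85 in SCI, SE 0.07, edgeR adjusted p = 1.87e-06). Pkia, the form abundant in brain and muscle, fell to 53.8 ± 3.37 CPM in SCI and 54.3 ± 4.91 in sham, against 73.4 ± 1.56 in naive (log2 change -0.45 in SCI, edgeR adjusted p = 0.000278).

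Of the G protein alpha subunits, Gnas and Gnal stimulate adenylyl cyclase and Gnai1, Gnai2 and Gnai3 inhibit it. Gnai2 rose to 642 ± 15.9 CPM in SCI, against 437 ± 12.5 in naive (log2 change 0.56, edgeR adjusted p = 3.56e-05). Gnal stood at 177, 179 and 195 CPM in SCI libraries, 205, 187 and 173 in sham libraries and 124, 126 and 123 in naive libraries. Every SCI and sham library was above every naive one for Gnal (log2 change 0.56 in SCI and 0.60 in sham, edgeR adjusted p = 4.25e-05 and 2.03e-05). Gnai3 and Gnai1 fell in SCI by 0.43 and 0.34 on the log2 scale (edgeR adjusted p = 0.000386 and 0.0106). Gnas rose by 0.35 and Pkib, a further PKA inhibitor, by 0.36 (edgeR adjusted p = 0.00247 and 0.00590). Gnas is counted under 2 identifiers, of which the more abundant was used. Gnal in SCI, Gnas, Gnai1 and Pkib are named to complete this list, after their values were seen.

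**Figure D4:**
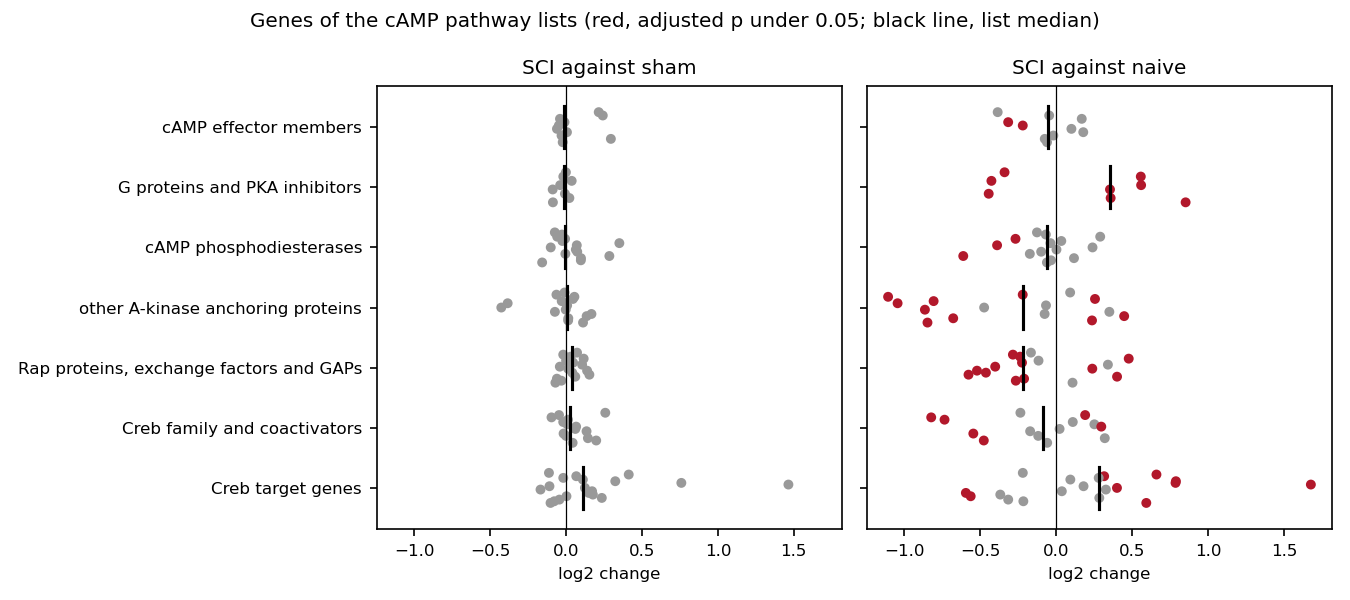
Log2 change of each tested gene of the 10 effectors and 6 further pathway lists, for SCI against sham (left) and SCI against naive (right), with red points for an adjusted p under 0.05 in edgeR and black lines for list medians. No gene was called against sham, and 8 of 8 genes of the G protein and PKA inhibitor list were called against naive, in both directions.

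Of 15 tested cAMP phosphodiesterases, which degrade cAMP, none was called higher and 3 lower in SCI than in naive, with the same counts for sham, beside 24.6% of all genes called lower in SCI and 25.9% in sham. Pde7a fell to 7.17 ± 0.102 CPM in SCI and 5.90 ± 0.511 in sham, against 11.0 ± 0.987 in naive (log2 change -0.61 in SCI and -0.90 in sham, edgeR adjusted p = 0.000414 and 2.42e-05). Pde3b fell by 0.39 in SCI and 0.46 in sham on the log2 scale (edgeR adjusted p = 0.00249 and 0.000787).

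Of 15 tested A-kinase anchoring proteins other than Akap5, 3 were called higher and 7 lower in SCI than in naive, and 2 higher and 6 lower in sham, beside 48.5% of all genes called in SCI and 50.6% in sham. Akap11, an anchor of type I and type II PKA, fell to 115 ± 7.67 CPM in SCI and 110 ± 2.90 in sham, against 247 ± 12.9 in naive (log2 change -1.11 and -1.16, edgeR adjusted p = 2.64e-07 and 1.41e-07). Akap13, a further anchoring protein, fell by 0.81 in SCI and 0.78 in sham on the log2 scale (edgeR adjusted p = 8.74e-07 and 8.07e-07). Akap8l, a nuclear relative of Akap8, rose by 0.45 in SCI and 0.31 in sham (edgeR adjusted p = 0.00116 and 0.0113), Ezr (ezrin) by 0.24 in SCI (edgeR adjusted p = 0.0401) and Akap7 by 0.42 in sham (edgeR adjusted p = 0.0372).

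Akap11 and Akap13 encode very large proteins, and other genes of this kind are given beside them. Of 14 matched genes in a list of very large proteins, chosen with earlier results known and sharing no gene with the lists above, all 14 were called lower in SCI and all 14 in sham (median log2 change -1.19 and -1.20), beside 24.6% of all genes called lower in SCI and 25.9% in sham and all-gene medians of 0.011 and 0.00048. An earlier look at these data had already seen genes of very long proteins lower in SCI and sham than in naive. The list was picked with that known, so its counts against naive are a description and no independent support. Between SCI and sham none of the list was called (median 0.031). The part of transcript length or RNA quality in the values of the anchoring proteins and coactivators was not tested.

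Epac switches on Rap proteins, and a list of 16 genes held Rap proteins, other exchange factors and GTPase activators. Of these 16, 3 were higher and 9 lower in SCI than in naive, and 2 higher and 9 lower in sham. Of all genes, 24.6% were called lower in SCI and 25.9% in sham. Rap1gap, which switches Rap1 off, rose to 222 ± 8.67 CPM in SCI and 204 ± 12.5 in sham, against 159 ± 7.82 in naive (edgeR adjusted p = 9.95e-05 and 0.000722). Rapgef1 rose by 0.24 in SCI and 0.22 in sham on the log2 scale (edgeR adjusted p = 0.0146 and 0.0195). Rapgef6 and Rapgef2, Rap exchange factors that are not Epacs, fell by 0.58 and 0.52 in SCI and by 0.73 and 0.66 in sham (edgeR adjusted p from 6.85e-06 to 7.47e-05).

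Of 14 Creb family members, coactivators and their regulators, 2 were higher and 4 lower in SCI than in naive, and 2 higher and 5 lower in sham, which is near the 48.5% of all genes called in SCI and the 50.6% in sham. Crebbp, the coactivator that binds phosphorylated CREB, fell to 25.2 ± 0.594 CPM in SCI and 25.1 ± 2.40 in sham, against 42.0 ± 0.549 in naive (edgeR adjusted p = 6.43e-06 and 4.87e-06). Its protein is very large as well. So is that of Ep300 on the same list. Ep300 was not called against naive (log2 change -0.17 in SCI and -0.31 in sham, edgeR adjusted p = 0.270 and 0.0585). Ppp1cb, a subunit of the phosphatase that dephosphorylates CREB, fell by 0.55 in SCI and 0.53 in sham on the log2 scale (edgeR adjusted p = 0.000151 and 0.000160). Crtc2, a CREB coactivator moved into the nucleus by cAMP, rose by 0.30 in SCI and 0.23 in sham (edgeR adjusted p = 0.00373 and 0.0160). Creb3, a membrane-bound relative, rose by 0.19 and 0.24 (edgeR adjusted p = 0.0493 and 0.0177).

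Of 19 tested CREB target genes, 7 were higher and 2 lower in SCI than in naive (median log2 change 0.28), and 6 higher and 2 lower in sham (median 0.047). Taken over both directions, these counts, too, are near the 48.5% of all genes called in SCI and the 50.6% in sham. By direction, 23.9% of all genes were called higher and 24.6% lower in SCI, and 24.7% higher and 25.9% lower in sham. The all-gene medians were 0.011 in SCI and 0.00048 in sham. The lean of the targets to higher calls was not tested. Egr1, an activity-induced transcription factor, rose by 0.79 in SCI and 0.46 in sham on the log2 scale (edgeR adjusted p = 0.000197 and 0.00780). Sst, the neuropeptide somatostatin, rose to 85.9 ± 15.7 CPM in SCI and 91.9 ± 5.66 in sham, against 56.8 ± 3.69 in naive (edgeR adjusted p = 0.000649 and 0.000175). Pcsk1, a prohormone protease, fell by 0.56 in SCI and 0.57 in sham, and Nr4a2, an orphan nuclear receptor, by 0.60 and 0.75 (edgeR adjusted p from 5.03e-05 to 0.000277). The comparisons of SCI and of sham with naive share the naive libraries, so these values stand side by side and are no repeat of each other.

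The remaining cell type lists are given as summed CPM. Satellite glia markers (5 genes) stood at 514 ± 5.65 CPM in SCI libraries, 495 ± 33.4 in sham libraries and 482 ± 15.8 in naive libraries. Macrophage markers (8 genes) stood at 216 ± 3.42 CPM in SCI libraries, 221 ± 51.9 in sham libraries and 173 ± 13.9 in naive libraries. Fibroblast markers (5 genes) stood at 1746 ± 202 CPM in SCI libraries, 1882 ± 506 in sham libraries and 2786 ± 202 in naive libraries. Pericyte and smooth muscle markers (7 genes) stood at 295 ± 8.31 CPM in SCI libraries, 316 ± 51.1 in sham libraries and 235 ± 7.56 in naive libraries. Spinal cord glia markers (6 genes) stood at 7.30 ± 1.79 CPM in SCI libraries, 5.69 ± 0.0570 in sham libraries and 8.39 ± 0.461 in naive libraries. Each of these lists except spinal cord glia spread most in sham. Such sums follow their most abundant genes, and single markers went the other way. Against naive, Cd163 and Mrc1 had lower means in SCI and sham although the macrophage sum was higher. Sox10 had higher means although the Schwann cell sum was lower. Scn10a had lower means (452 CPM in SCI and 455 in sham, against 659 in naive) although the sensory neuron sum was higher. Myh1 had its highest mean in naive (23.5 CPM, against 22.6 in sham) although the skeletal muscle sum was highest in sham. The part of these cell types in the values of the 10 genes was not tested.

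For each of the 4 effector genes called in any comparison, the genes with the closest pattern over the 9 libraries were found among 13016 tested genes of at least 1 CPM on average. Likeness was the root mean square difference of log2 CPM, each gene centred on its own mean. Closest to Rapgef3 were Fnbp4, Plxnb3 and Inafm1, at differences of 0.046, 0.052 and 0.064. Near to Prkaca were Clip2 and Abcf3, each at 0.019. Closest to Prkacb were Tomm70a, G3bp2 and Map2k4, at 0.037 to 0.039, and to Prkar1a Hspa9, Pptc7 and Slc22a23, at 0.028 to 0.033. The gap between the naive and the other libraries is shared by many genes and enters each of these patterns.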

How the data were processed

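RNA was measured in 9 DRG libraries, made per the labels' protocols with a TruSeq V2 kit. That kit keeps no strand, so a gene and an antisense partner share their reads. The tools DESeq2, HTSeq, TopHat2, Trimmomatic and FastQC are named in the submitters' processing notes, while the genome build, annotation and versions were not given there or in the labels. Raw counts per gene, as deposited, were the input, and every count column was read. At the lowest total of 16724878 counts, counting error adds to the spread of sparse genes such as Akap5.

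The 10 genes and all lists were chosen with earlier results of these data known. Of 174 listed symbols, 169 matched, and the others were not analysed here. Differences were tested by quasi-likelihood in edgeR 4.0.16 (R 4.3.3), after TMM scaling and edgeR's own filter on low counts, with 1 mean per group in 1 fit of all 9 libraries (6 residual degrees of freedom). P-values were adjusted by Benjamini-Hochberg over all 16627 genes tested, with calls under 0.05. CPM used TMM-scaled totals, and log2 CPM a prior count of 2. Ratios were compared by two-sided exact permutation tests (scipy 1.17.1). In a simulated SCI against sham comparison on 16627 genes, changes were placed in 50 genes each at 1.25-fold, 1.5-fold, 2-fold and 4-fold. The test found 28%, 70%, 82% and 98% of these in that order, and 3 genes without a change were called. In the measured libraries no gene was called between SCI and sham, not even Fos at a log2 change of 0.76 (edgeR adjusted p = 0.495). Whether the shares found in the simulation hold for the measured comparison was not tested. As alternatives, scaling was by upper quartile or RLE, the filter was left off or set at a mean of 5 CPM, limma-voom (3.58.1) or DESeq2 (1.42.0) took the place of edgeR, the fit held just the groups compared or a block for replicate number, and each library was left out.

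All 10 genes are named in every comparison, and of each further list up to 2 called genes per direction with the smallest p, or the gene with the smallest p where none was called. A planned split by protein length was not run, since no protein table was used here, and the list of very large proteins (16 symbols, 14 matched) was added after the data were seen. No member's window held a full CRE, so the shorter core was searched, likewise added after the data were seen. One gene with a pattern near that of Prkaca is not reported here.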

Additional observations from a re-analysis of the deposited data

How the results depend on the processing

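None of the 10 genes was called between SCI and sham under any of the 17 alternatives. The count of all genes called there was 0, against 11 without a low-count filter, 9 with DESeq2 and 0 to 22 with 1 library left out (22 without sham 3). Between SCI and naive 2 of the 10 were called, 4 with only these groups in the fit and 0 to 4 with 1 library left out. Between sham and naive 3 were called, 1 with only these groups in the fit and 1 to 4 with 1 library left out. Several changes turned sign. Between SCI and sham, Prkar2a was at -0.0032 with RLE scaling and -0.0031 with DESeq2, and Prkacb at 0.0097 with limma-voom and 0.0026 with the replicate number as a block. Between sham and naive, Prkar2b was at -0.011 with the strict filter. With 1 library left out, log2 changes between SCI and sham ran from -0.092 to 0.017 for Rapgef4, -0.080 to 0.034 for Prkaca, -0.17 to 0.11 for Prkacb, -0.14 to 0.039 for Prkar1a, -0.19 to 0.092 for Prkar1b, -0.10 to 0.069 for Prkar2a, -0.089 to 0.019 for Prkar2b, -0.090 to 0.39 for Akap5 and 0.11 to 0.35 for Creb1. Between SCI and naive they ran from -0.076 to 0.023 for Prkar2b, -0.17 to 0.062 for Creb1 and -0.69 to -0.21 for Akap5, and between sham and naive from -0.075 to 0.0074 for Rapgef4, -0.0016 to 0.29 for Prkar1b, -0.045 to 0.072 for Prkar2b, -0.27 to -0.073 for Prkar1a and 0.099 to 0.29 for Prkar2a. The log2 ratio of Rapgef4 to Rapgef3 between SCI and naive ran from -0.024 to 0.060, and between SCI and sham the ratio of Prkacb to Prkaca ran from -0.092 to 0.14, of Prkar1b to Prkar1a from -0.036 to 0.061 and of Prkar2b to Prkar2a from -0.097 to 0.015. The cause was not tested. Adding 0.5 to both counts turned no ratio. Akap5 did not pass the strict filter and has no value there. In the 6 further pathway lists, 0 to 2 Creb targets and no gene of the other 5 lists were called between SCI and sham over the alternatives. Against naive, the Rap list had 5 to 11 genes called lower in SCI and 5 to 10 in sham, and the Creb targets 5 to 9 higher in SCI and 2 to 7 in sham. Same-numbered libraries of different groups did not deviate together (correlations of -0.095 to 0.12, against -0.13 to 0.16 for other pairs). With the replicate number as a block, 7848 genes were called between SCI and naive and 8153 between sham and naive, against 8059 and 8407 without it, and no call among the 10 genes changed.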
